A study of Mus musculus with 15 samples.

Results

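The regions described here are the 5371 open H3K27ac peaks that gained acetylation in irradiated mouse fibroblasts. A peak was a member when it overlapped a FAIRE peak by at least 1 bp and its log2 ratio of irradiated to untreated H3K27ac reads, with 16 reads added to each, was at least 1. They are 5371 of 40215 open H3K27ac peaks and of 90682 H3K27ac peaks in all. Members were thus chosen by their H3K27ac reads, and H3K27ac values at members are given below as a description, with no test. The cells were NIH3T3, an immortalised fibroblast line derived from mouse embryos. One condition was untreated. The other received 80 J/m2 of UV-C at 254 nm, then medium with DMSO diluted 1 in 2000, and was collected after 6 h. Each condition had 2 FAIRE, 2 H3K27ac and 3 RNA samples, and 1 input DNA sample completed the 15.

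Acetylation of histone H3 at lysine 27 is placed by the acetyltransferases p300 and CBP and removed by histone deacetylases. It marks nucleosomes beside active promoters and enhancers, and it commonly surrounds a short nucleosome-poor stretch where transcription factors bind. FAIRE recovers that stretch, because DNA that is poorly crosslinked to protein stays in the aqueous phase of a phenol extraction. In damaged fibroblasts, p53 and the AP-1 and ATF factors downstream of stress kinases are known to act through such elements.

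Chromatin reads of the 2 samples of each condition were deposited as 1 pool, so no chromatin value here has an error between samples. Intervals on chromatin reads cover counting error only, and intervals on medians describe the spread over peaks. Reads at H3K27ac peaks summed to 15525272 untreated and 17852404 irradiated. FAIRE reads at FAIRE peaks summed to 2691671 and 1667365. Input scales were solved from the authors' enrichment values. In the promoter tables the irradiated scale was 0.803 of the untreated one for FAIRE and 1.01 for H3K27ac. These ratios are taken below as the depth ratios of the pools, which the authors do not state. The peak tables give 1 scale for both pools of an assay, so depth scaling of FAIRE peaks below takes its factor from the promoter tables. The RNA libraries held 14211528 to 22032701 counts. Nothing in the labels says that samples of a group came from separate cultures, and p-values on RNA then reflect spread that may be technical. Fibroblast markers summed to between 17075 and 37795 CPM (counts scaled to a common library size) per RNA library, with Fap, 1 of the 10, below 1 CPM in at least 1 library. Epithelial markers summed to 4.95 to 8.65, endothelial markers to 2.91 to 9.63 and immune markers to 8.46 to 18.8 CPM.

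H3K27ac at the gaining peaks rose from a low start to a level above that of the other open peaks. The median member held 106 reads untreated and 355 irradiated, or 126 and 420 reads per kb. The median of the other 34844 open peaks went from 245 to 198 reads per kb. Summed over the 5369 members outside the mitochondrial genome, reads went from 1151131 to 3335404, a ratio of 2.90, while the other open peaks kept their sum, at 11551740 and 11535359. These sums cover 5079766 bp and 30537290 bp, and the mean density went from 227 to 657 reads per kb at members and from 378 to 378 at the other open peaks.

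The size of the gain was graded. The median log2 ratio was 1.40 and the quartiles were 1.17 and 1.75. The ratio was under 1.2 in 1535 members (28.6%), at least 2 in 812 (15.1%) and at least 3 in 48. The exact 95% counting interval of the read ratio lay wholly above 2 in 3944 members (73.4%), which describes the precision of reads that the rule used. Only 115 members held fewer than 50 reads over both pools. The rule called 13.4% of open peaks, 11.3% of the 50467 H3K27ac peaks without FAIRE and 12.2% of all H3K27ac peaks, and nothing is read from these shares, because they are the rule itself. A log2 ratio of -1 or less was found in 4285 open peaks (10.7%), called losing peaks below, and 30559 lay between the thresholds. When reads were scaled to equal sums over all H3K27ac peaks, 3938 open peaks gained and 5704 lost, so the gaining share of both went from 55.6% to 40.8%.

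**Figure D1:**
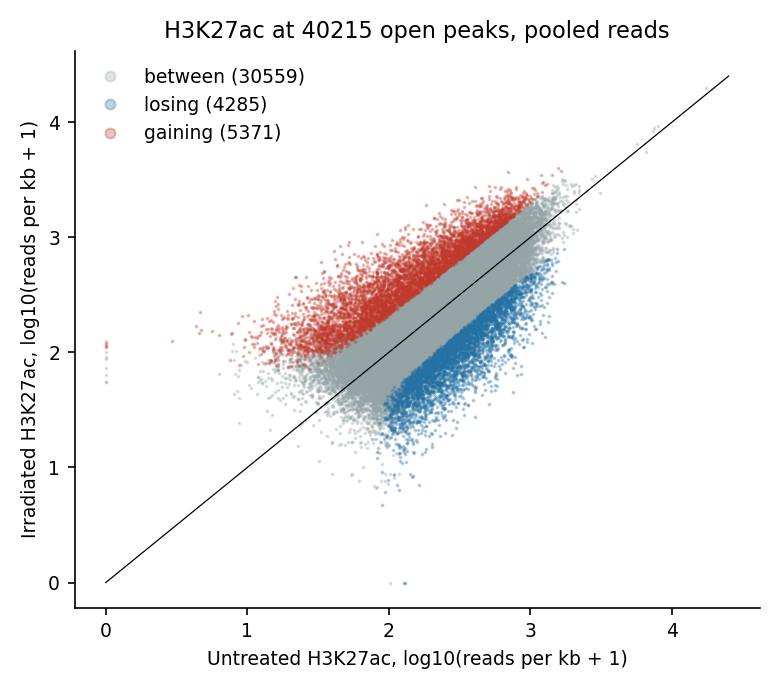
Pooled H3K27ac reads per kb, plus 1, at each of the 40215 open peaks on log10 scales, untreated on the horizontal and irradiated on the vertical axis. Each point is 1 peak, coloured as gaining (5371), losing (4285) or between, and the line marks equal values. The gaining peaks reach their irradiated level from starting values of 0 to 1647 reads per kb, with a median of 126.

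The threshold divides neighbours of nearly the same ratio. Just inside it, chr1:46920186-46921566 held 122 reads untreated and 260 irradiated, and chr1:64855239-64855902 held 209 and 434. Just outside, chr13:94073252-94074673 held 483 and 981 reads, a log2 ratio of 0.9986, and chr19:59973417-59975098 held 385 and 785.

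The members with the highest ratios started from low enrichment. All coordinates of peaks are those of the deposited mm9 files, counted from 1. The first of them, chr17:16162324-16164077, is 1754 bp wide and held 37 untreated and 797 irradiated H3K27ac reads, a log2 ratio of 3.94. Its read ratio of 21.5 has a counting interval of 15.4 to 30.6. The authors' deposited log2 enrichment over input there was -0.39 untreated and 3.54 irradiated, so the untreated reads did not exceed the scaled input. The FAIRE peak that overlaps it most went from 5 to 44 reads.

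The next in order were of the same kind. The peak chr11:75308939-75310414 went from 76 to 1330 H3K27ac reads, and its FAIRE peak from 43 to 57. The peak chr8:23544576-23545710 went from 45 to 857, with FAIRE from 7 to 13. The peak chr13:14060367-14061209 went from 37 to 712, with FAIRE from 20 to 31. The untreated log2 enrichment of these 3 was 0.52, 0.14 and 0.92, on a scale that the 16 added reads pull towards 0.

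The remaining 4 of the 8 highest ratios were on 3 chromosomes. The peak chr11:4725776-4727227 went from 59 to 935 reads and its FAIRE peak from 24 to 67. The peak chr11:107855271-107856027 went from 38 to 647, with FAIRE from 11 to 15, and chr17:28112752-28114072 from 84 to 1207, with FAIRE from 23 to 40. The peak chr10:53115348-53116150 went from 26 to 487, with FAIRE from 23 to 50. FAIRE reads were higher in the irradiated pool at all 8, although that pool was the shallower one by the input scales. The counting interval of the depth-scaled FAIRE ratio lay above 1 in 6 of the 8, the exceptions being the peak on chromosome 8 (0.903 to 6.64) and chr11:107855271-107856027 (0.766 to 3.96).

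Members with the most irradiated reads were a different kind of peak, already strongly acetylated before irradiation. The peak chr1:156944708-156946697 went from 2356 to 6932 reads, and chr15:61869167-61871730 from 2647 to 6913. The peak chr19:5447862-5449816 went from 1841 to 6225, chr3:88297696-88300111 from 1655 to 6115, and chr1:137662699-137664206 from 2351 to 5970. The peak chr17:29230750-29232241 went from 1031 to 5523, which was the largest log2 ratio of these 6, at 2.40. Their untreated log2 enrichment was 4.02 to 5.15, against a member median of 1.72. FAIRE moved little in reads at 5 of them, from 14 to 18 at the last and from 15 to 13 at chr1:137662699-137664206, with counting intervals that held 1. At chr1:156944708-156946697 it went from 23 to 57, with an interval of the depth-scaled ratio of 1.91 to 5.18.

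Starting acetylation set the members apart from the other open peaks, and it also stands in the denominator of the rule. The authors' untreated log2 enrichment had a median of 1.72 at members and 2.55 at the other open peaks. It was under 1 in 1564 members (29.1%) against 15.0% of the other open peaks, and at least 3 in 1080 (20.1%) against 38.4%. When all open peaks were put in 10 equal classes by untreated reads per kb, the share that gained fell from class to class, from 35.0% in the lowest to 5.27% in the highest. The highest class still held 212 gaining peaks. By their names the peaks are a set merged over all samples, so a site with few untreated reads can be listed because of its irradiated reads. The lowest class held 0% losing peaks, and the fall in share is therefore a description of the listed peaks only.

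Members that started under an enrichment of 1 were short and gained the most in proportion. Their median width was 594 bp, their reads went from a median of 25 to 107, and their enrichment from 0.45 to 1.99. After irradiation, 761 of the 1564 (48.7%) reached an enrichment of at least 2. The 2727 members that started between 1 and 3 had a median width of 889 bp and went from 122 to 387 reads. The 1080 that started at 3 or more were 1264 bp wide at the median and went from 569 to 1467 reads, a median log2 ratio of 1.25 against 1.52 in the lowest group. Starting openness followed the same order: the untreated FAIRE enrichment was at least 1 in 16.7% of the lowest group and in 74.4% of the highest.

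**Figure D2:**
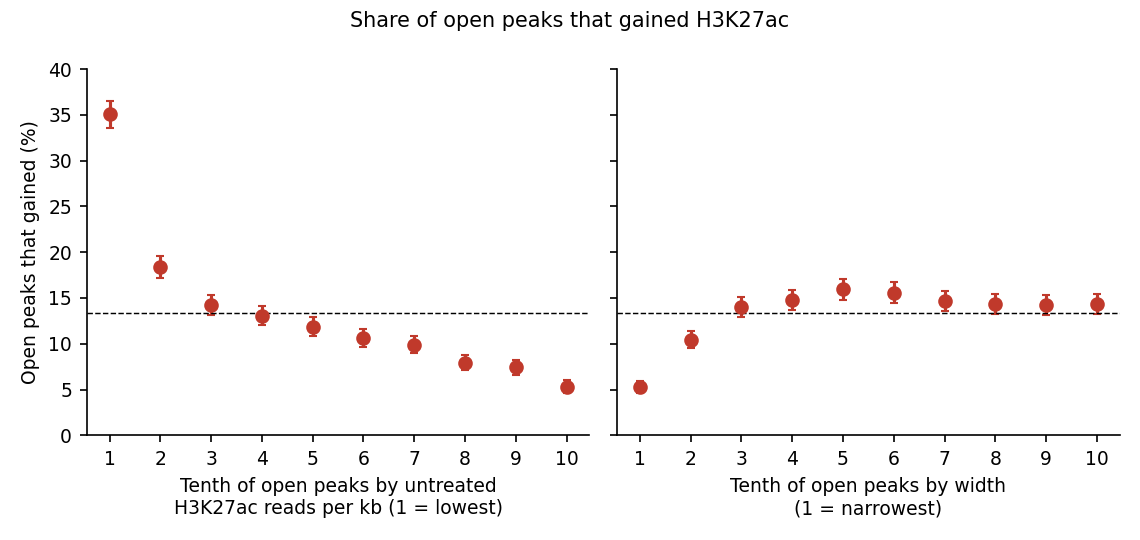
Percent of open peaks that gained H3K27ac in 10 equal classes of untreated H3K27ac reads per kb (left) and of peak width (right). Points are shares with exact 95% binomial intervals over peaks, and the dashed line is the share over all open peaks, 13.4%. The share falls from 35.0% to 5.27% with starting acetylation, and the narrowest peaks gained least often, at 5.25%.

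Gaining peaks were slightly wider than the other open peaks and about 2 times as wide as gaining peaks without FAIRE. The median width was 867 bp, with quartiles of 567 and 1254 bp and a range of 129 to 3295 bp. The other open peaks had a median of 798 bp, the losing peaks 808 bp and the 5702 gaining peaks without a FAIRE peak 429 bp. The difference from the other open peaks lay mainly among narrow peaks: 4.78% of members and 12.3% of the other open peaks were under 300 bp, whereas 40.7% and 37.2% were at least 1000 bp. Across 10 equal classes of width, the gaining share was 5.25% in the narrowest, 10.4% in the next and between 14.0% and 15.9% in the other 8. A narrow peak holds fewer reads, and the 16 added reads pull its ratio towards 0. With 1 read added, 6814 open peaks gained and their median width was 758 bp.

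The FAIRE peaks that overlapped a member covered only part of it. They covered a median of 21.9% of the H3K27ac peak, and the one of largest overlap had a median width of 335 bp against 321 bp in the other open peaks. The distance between the centres of both peaks was 313 bp at the median, and the FAIRE centre lay outside the H3K27ac peak in 2638 members (49.1%), against 47.4% of the other open peaks. A single FAIRE peak was the usual case, since 696 members (13.0%) overlapped 2 or more, against 12.2%.

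The rule used FAIRE only for the presence of a peak, and the FAIRE ratio was higher at members than at the other open peaks. For the FAIRE peak of largest overlap, members had a median of 29 reads untreated and 28 irradiated, and the other open peaks had 38 and 20. The log2 FAIRE ratio with 16 reads added was -0.07 at members (quartiles -0.33 and 0.19), -0.53 at the other open peaks, -0.91 at losing peaks and -0.35 over all 56970 FAIRE peaks. The median at members was 0.46 above that at the other open peaks. Within each of the 10 classes of untreated H3K27ac reads per kb it was 0.30 to 0.42 above, within those of width 0.30 to 0.53, and within those of untreated FAIRE reads 0.27 to 0.46. In the lowest class of untreated FAIRE reads the medians were 0.21 at members and -0.06 at the other open peaks. The FAIRE peaks that the rule required are a merged set. A site with few untreated FAIRE reads can therefore be a member because of its irradiated ones. The part of this in the difference was not tested. No test is possible, because the FAIRE tables hold 1 pool per condition.

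The sign of the members' own FAIRE change depended on the scaling, and the order of the groups did not under the scalings tried. As deposited, the FAIRE ratio was above 0 in 40.5% of members and 7.14% of the other open peaks. After scaling for the depth of the FAIRE pools, the medians were 0.12 at members, -0.35 at the other open peaks and -0.74 at losing peaks, and the ratio was above 0 in 62.9% of members against 17.1%. The ratio exceeded the median of all FAIRE peaks in 76.2% of members and 31.0% of the other open peaks. Summed over distinct nuclear FAIRE peaks, reads at members went from 195580 to 166273, which is 0.850 as deposited and 1.06 after depth scaling. At the other open peaks the sums were 1857218 and 1098294, or 0.591 and 0.737, and at losing peaks the ratios were 0.345 and 0.430.

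FAIRE change followed the size of the H3K27ac change through the whole range. The median log2 FAIRE ratio, as deposited, was 0.23 where the H3K27ac ratio was at least 2, with a 95% interval over peaks of 0.20 to 0.27. It was 0.00 for H3K27ac ratios of 1.5 to 2, -0.13 for 1.2 to 1.5 and -0.22 for 1 to 1.2. Below the threshold it continued from -0.36 (0.5 to 1) to -0.66 (-1 to -0.5) and -0.91 (under -1), with no step at the threshold. Over the 40215 open peaks the ratios of both assays had a Pearson correlation of 0.55 and a Spearman correlation of 0.49, and over the members 0.42 and 0.38. These describe peaks of the same pools, of which neighbours can share a FAIRE peak.

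**Figure D3:**
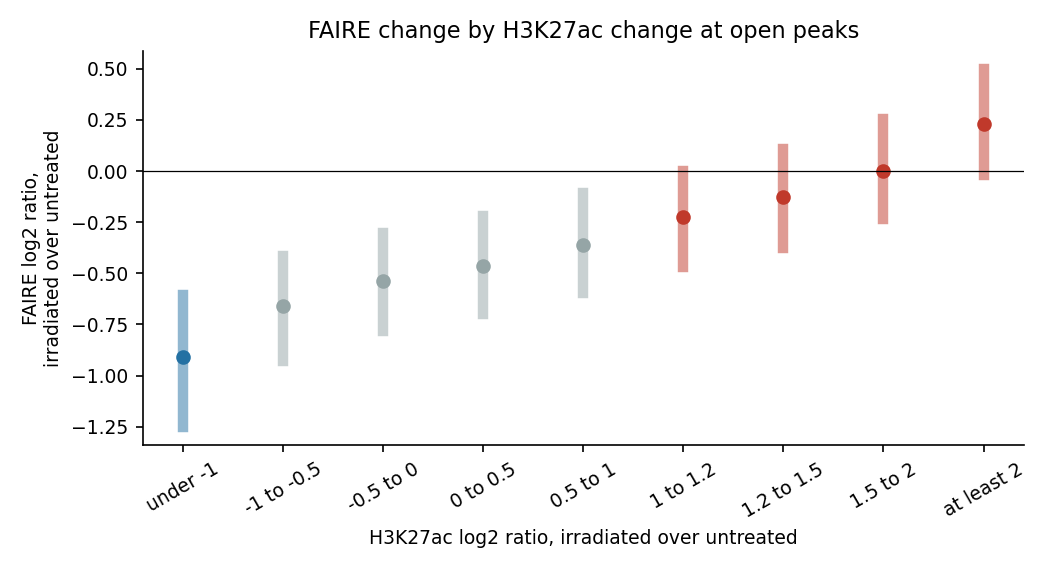
Log2 FAIRE ratio (irradiated over untreated pool, 16 reads added, as deposited) in classes of the log2 H3K27ac ratio at open peaks. Dots are medians over peaks and thick bars span the quartiles. The class under -1 is blue, classes from -1 to 1 are grey and classes of gaining peaks red, and the medians run from -0.91 to 0.23 in order of the H3K27ac class.

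Few FAIRE peaks reached a log2 ratio of 1 in either scaling, and most that did lay in gaining peaks. Over all FAIRE peaks 31 did, which is 0.0544% of those measured. Of the 31, 24 overlapped a gaining peak, 2 overlapped another open peak, 0 overlapped a losing peak and 5 overlapped no H3K27ac peak. Scaled for depth there were 129, and the counts were 98, 11, 0 and 23. Some of these FAIRE peaks overlap H3K27ac peaks of more than 1 kind. In the other direction, 4333 FAIRE peaks (7.61%) had a ratio of -1 or less as deposited. Of these, 58 overlapped a gaining peak and 3892 another open peak. Scaled for depth there were 2374, and the counts were 19 and 2099. Counted by member, as deposited, 31 (0.577%) held a FAIRE peak at 1 or more and 52 (0.968%) at -1 or less. Among the other open peaks 2 and 4786 (13.7%) did.

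Members that began with little acetylation had the higher FAIRE ratios. In the group that started under an enrichment of 1, FAIRE reads were 15 and 18 at the median, the log2 ratio was 0.06 and 56.1% were above 0. In the group that started at 3 or more they were 55.5 and 43, the ratio was -0.28 and 23.5% were above 0. Starting FAIRE itself differed between members and the other open peaks, with an untreated enrichment of at least 1 in 45.9% and 60.5%. The gaining share was 23.0% in the lowest of 10 classes of untreated FAIRE reads and 9.15% in the highest. FAIRE peaks are also a merged set, so sites with few untreated reads can be listed because of their irradiated reads. That limits what the comparisons by starting level, and the FAIRE difference between members and the other open peaks, can show.

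Gaining peaks lay beside each other along the chromosomes more often than beside losing peaks. The open peak that followed a gaining peak was itself gaining in 1759 of 5368 cases (32.8%), against 11.3% after a peak between the thresholds and 3.85% after a losing peak. At gaps under 1 kb the share was 59.0% after a gaining peak and 0 of 1034 after a losing peak, which allows up to 0.356% (exact 95% upper bound). It fell with distance to 35.4% at 1 to 5 kb, 26.9% at 5 to 20 kb and 20.9% at 20 to 100 kb. Beyond 100 kb it was 14.9%, close to the 14.3% found after peaks between the thresholds. Neighbouring peaks are not independent, so these shares carry no test.

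**Figure D4:**
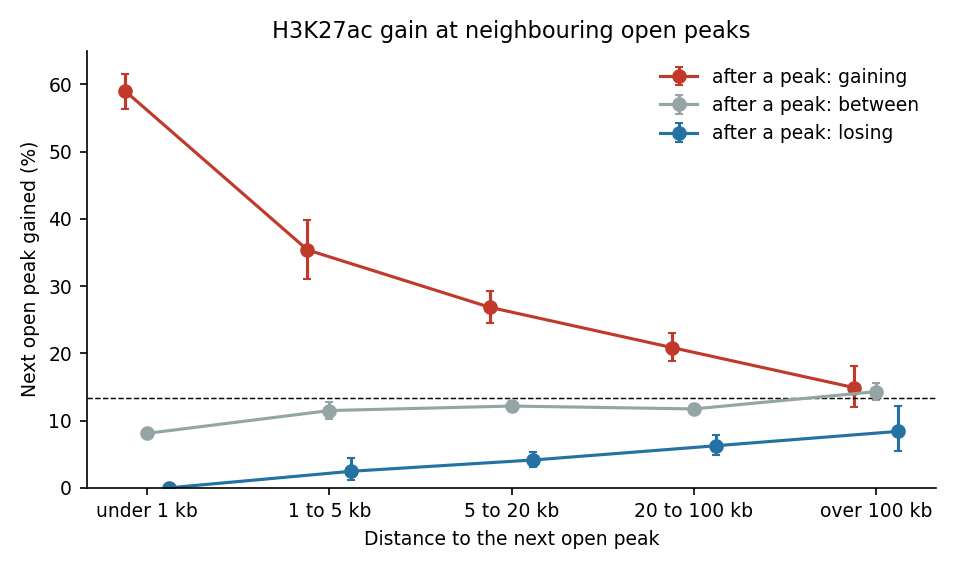
Percent of open peaks that gained H3K27ac, by the distance from the preceding open peak and by what that peak did. Points are shares with exact 95% binomial intervals over pairs, and the dashed line is the share over all open peaks, 13.4%. After a gaining peak the share falls from 59.0% to 14.9% with distance, and after a losing peak it rises from 0 to 8.39%.

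Part of this closeness came from single open sites that carry more than 1 H3K27ac peak. The nearest other member lay at a median of 23.9 kb, within 2 kb for 30.5% of members, within 10 kb for 39.9% and within 100 kb for 71.4%. Losing peaks were spaced alike, with 25.4%, 39.0% and 73.7% of them that near to another losing peak. An overlap of at least 50% of the shorter peak, in place of 1 bp, left 2829 members, and only 12.6% of those had another within 10 kb. When open peaks that share a FAIRE peak were joined, 32559 sites resulted, of which 4704 held a gaining peak, and 2182 members (40.6%) were in sites of 2 or more open peaks.

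Peaks of 1 site tended to move the same way. Among the 1449 sites of exactly 2 open peaks with a gaining peak, both gained in 613 (42.3%) and both had a ratio above 0 in 1310 (90.4%). After joining, neighbouring sites still resembled each other. The next site was gaining in 26.99% of cases after a gaining site and 12.3% after another site, and at gaps under 5 kb in 43.6% and 10.6%. Another gaining site lay within 10 kb of 22.2% of the gaining sites.

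Most members stood alone or in pairs, and a minority formed longer runs. A run is an unbroken series of open peaks that all gained. There were 3612 runs, of which 2575 were single peaks (47.9% of members), and 358 runs of 3 or more held 1438 members (26.8%). The 83 runs of 5 or more held 540 members and spanned a median of 58.0 kb. Members in runs of 3 or more had a median H3K27ac ratio of 1.54 and a FAIRE ratio of 0.00, and members alone had 1.33 and -0.13. Losing peaks formed 64 runs of 5 or more, and their longest, of 15 peaks, was longer than the longest gaining run, of 12.

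The longest gaining run, chr4:57769995-57893043, held 12 peaks over 123 kb. Its H3K27ac reads went from 3999 to 11135, a depth-scaled ratio of 2.76 (95% counting interval 2.66 to 2.86), and the log2 ratios of its peaks ranged from 1.03 to 2.55. Its 12 distinct FAIRE peaks held 623 and 477 reads, fewer in the irradiated pool, and 6 of them were above the median FAIRE ratio of all FAIRE peaks. A run of 11 peaks on chr10:18735331-18872697, over 137 kb, went from 1187 to 4807 reads, a ratio of 4.02 (3.77 to 4.28). There the 9 distinct FAIRE peaks went from 292 to 327 reads, and 8 of them were above that median. The third, chr14:105986714-106084641, held 11 peaks over 97.9 kb, which went from 1899 to 6443 reads, a ratio of 3.36 (3.20 to 3.54). Its 8 distinct FAIRE peaks held 416 and 410 reads, 7 of them were above the median, and 1 reached a FAIRE ratio of 1.16. FAIRE ratios within the 3 runs, where every open peak gained by definition, ranged from -0.69 to 1.16.

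**Figure D5:**
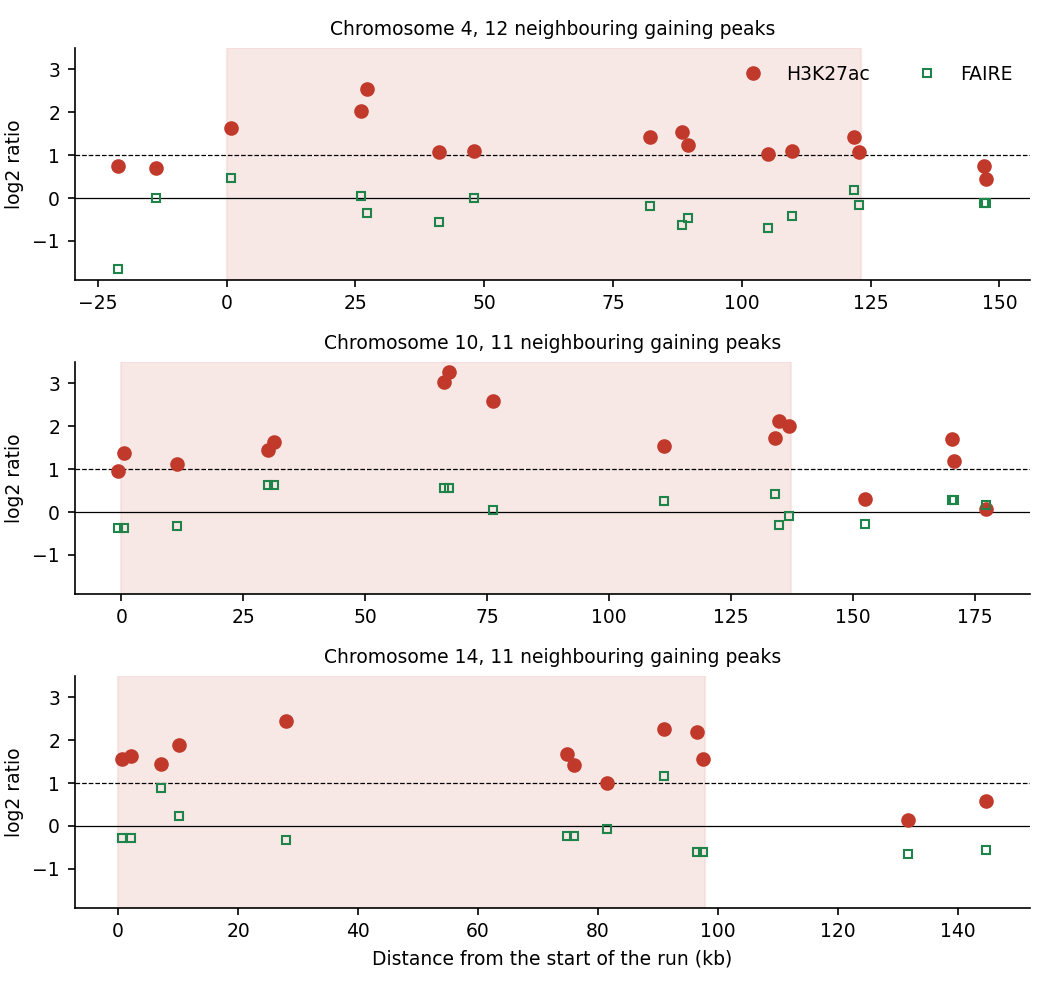
Log2 ratios of irradiated to untreated pooled reads at each open peak in and around the 3 longest gaining runs, against the distance from the start of the run in kb. Filled circles are H3K27ac, open squares the FAIRE peak of largest overlap, the shaded stretch is the run and the dashed line the threshold of 1. H3K27ac is above the line throughout each run, and the FAIRE values lie on both sides of 0.

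No chromosome carried the gain on its own. The gaining share of open peaks ranged over the autosomes from 10.4% on chromosome 6 (252 of 2413) to 15.9% on chromosome 10 (376 of 2359), and on the X chromosome 68 of 618 gained. Chromosome 6 also had the highest losing share, at 13.8%. None of the 18 open peaks on the Y chromosome gained. Of 6 open peaks on the mitochondrial genome 2 met the rule, chrM:244-527 with 24 and 87 reads and chrM:1720-2103 with 24 and 84. Mitochondrial DNA carries no histones, and both peaks lay far below input, with 1122 and 1276 input reads. They were the 2 members with a log2 enrichment below 0 after irradiation.

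Peaks could not be assigned to genes by position, since the tables of genes give no coordinates and the reference tables at hand are of another build. Genes were therefore linked through the deposited table of 1000 bp promoter windows, with the same threshold on the same ratio. Of 21881 windows 536 gained, which is 2.45%. This share cannot be set against the 13.4% of open peaks, because a window needed no H3K27ac or FAIRE peak to be counted. RNA was not part of the rule. Of the 449 tested genes with a gaining window, RNA was higher in 72 (16.04%) and lower in 61 (13.59%) by edgeR's quasi-likelihood test at an adjusted p of 0.05. Over all 14925 genes tested, 7.7% were higher and 12.4% lower. The median log2 fold change was 0.09 with a gaining window and -0.01 over all genes. RNA thus rose at some gaining promoters, fell at others and was not called at 316. Of the 88 tested genes with a window ratio of at least 1.5, 17 (19.3%) were higher and 7 (7.95%) lower.

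The count of lower genes depended on the scaling and on single libraries. With library totals in place of TMM scaling it was 56 higher and 145 lower, a scaling that also put the median of all genes at -0.24 and called 25.1% of all genes lower. Without irradiated replicate 1 there were 64 (14.1%) higher and 123 (27.1%) lower, against 7.62% and 18.3% of all genes. Without irradiated replicate 3 there were 54 (11.9%) and 34 (7.47%), against 3.75% and 7.31% of all genes. Without untreated replicate 2 there were 85 (18.7%) and 35 (7.69%), against 12.5% and 7.49% of all genes. The share of lower genes thus moved over all genes too. Irradiated replicate 1 had the lowest TMM factor, 0.803, against 0.932 to 1.19 in the others, and the part of this difference in the counts was not tested.

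Gaining windows were common among listed targets of p53, the factor that DNA damage stabilises. The list was chosen with results of these data known, so its count is not independent evidence. Of its 29 windows 18 gained, against 2.45% of all windows. On the whole list 8 of 27 tested genes were higher in RNA and 3 lower, with a median log2 fold change of 0.05, against 7.7% and 12.4% of all genes tested. Of the 17 tested genes with a gaining window, 6 were higher in RNA, 0 lower and 11 not called. Cdkn1a, which encodes the cell cycle inhibitor p21, had 245 and 810 H3K27ac reads in its window, and FAIRE reads of 26 and 82. Its RNA was 29.9, 19.9 and 18.4 CPM in the untreated libraries and 180, 55.4 and 91.9 CPM in the irradiated ones. The irradiated values were spread widely but lay above all untreated ones, with a log2 fold change of 2.26 ± 0.32 (SE, n = 3 libraries per group, edgeR adjusted p = 6.96e-05). Pmaip1, which encodes the cell death protein Noxa, had the highest window ratio of the named genes, 2.48, from 32 to 252 reads. Its RNA was 2.28, 1.73 and 1.30 CPM untreated and 44.3, 19.3 and 32.2 CPM irradiated, with no overlap and a log2 fold change of 4.19 (edgeR adjusted p = 6.55e-08).

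At 11 other p53 targets the window gained and RNA was not called, with window log2 ratios from 1.15 at Apaf1 to 2.22 at Eda2r. Bbc3, which encodes the cell death protein Puma, went from 356 to 1680 window reads, a log2 ratio of 2.19, and from 41 to 76 in FAIRE. Its RNA was 3.68, 4.96 and 4.98 CPM untreated and 6.44, 4.38 and 5.62 CPM irradiated, which overlap, with a log2 fold change of 0.27 (edgeR adjusted p = 0.619). Eda2r had a window ratio of 2.22 and an RNA log2 fold change of -0.39 (edgeR adjusted p = 0.471). That of Sesn2, a gene of the oxidative stress response, was -0.68 (edgeR adjusted p = 0.0615) with a window ratio of 1.84, and its RNA passed the threshold as lower in 5 of 12 alternatives, among them the fit without irradiated replicate 1 (-1.11). Eda2r passed it as lower in that fit too, at -0.91, and changed sign without untreated replicate 1, at 0.091. Mdm2, which encodes the ubiquitin ligase of p53, had 552 and 1333 window reads, and its RNA was 85.9 ± 19.9 CPM untreated and 88.8 ± 32.5 CPM irradiated (SD, n = 3). Aen, Apaf1, Ei24, Polk, Tnfrsf10b, Trp53inp1 and Zmat3 also had gaining windows and RNA that was not called. Ccng1 and Phlda3 were called higher, at log2 fold changes of 0.76 and 0.62 (edgeR adjusted p = 0.0436 and 0.0481), and these calls were lost in 6 and 7 of the 12 alternatives. When untreated replicate 2 was left out, Ccng1 was at 0.85 and Phlda3 at 0.71. When irradiated replicate 1 was left out they were at 0.46 and 0.43, and for irradiated replicate 3 at 0.79 and 0.60. Ccng1 was also not called when untreated replicate 3 was left out, at 0.68.

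Immediate early and AP-1 genes, which cells switch on within minutes to hours of stress or growth signals, were the list with the most gaining windows whose RNA also rose. This list too was chosen with results of these data known, so its counts are not independent evidence. Of the 33 windows on the list 14 gained, against 2.45% of all windows, and 12 of those 14 genes were higher in RNA and 0 lower. Among all tested genes with a gaining window, 16.04% were higher and 13.59% lower. On the whole list 24 of 32 tested genes were higher and 2 lower, against 7.7% and 12.4% of all genes tested. Fosb, a subunit of the AP-1 factor, went from 107 to 411 window reads, and its RNA from 0.829, 0.910 and 2.03 CPM to 60.7, 40.7 and 50.4 CPM. Its log2 fold change was 5.29 ± 0.29 (SE, n = 3 per group, edgeR adjusted p = 3.67e-09), and 5.95 without untreated replicate 3. Atf3, a stress factor of the same bZIP class, went from 164 to 419 window reads and from 2.39 ± 0.49 to 28.8 ± 7.99 CPM (SD, n = 3). Gadd45a, a DNA damage response gene on both this list and that of p53 targets, went from 120 to 303 window reads and from 5.69 ± 1.30 to 75.0 ± 5.78 CPM.

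FAIRE reads, as deposited, were higher at 4 of the 14 gaining windows, those of Fosl1 (57 to 78), Btg2 (135 to 143), Maff (95 to 99) and Ier5 (121 to 124). They went from 71 to 51 reads at Fosb, from 115 to 89 at Atf3 and from 103 to 78 at Gadd45a, in pools whose depth ratio was 0.803. Junb, Egr2, Nr4a1, Klf4, Ier2, Maff, Fosl1, Dusp1 and Btg2 made up the other called genes, with log2 fold changes from 1.08 for Klf4 to 3.10 for Btg2. Ier5 and Dusp5 had gaining windows, at 1.55 and 1.13, and their RNA was not called. Irradiated and untreated libraries did not overlap in any of the 12 called genes, which describes the same libraries that made the calls and is no further support.

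The upstream bases of Btg2 and Dusp1 are printed because they were the 2 of 12 named genes with higher RNA and a single listed start whose last 250 bases before the start hold TGACGTCA. That is the cyclic AMP response element, to which CREB and ATF factors bind, and it reads the same on both strands. The sequences come from RefSeq on GRCm38.p6, not from the mm9 windows, and lie at chr1:134079156-134079405 and chr17:26508473-26508722, both on the minus strand. Capitals mark the motif, which 508 of all 32851 upstream sequences in that table hold (1.55%), and a match is not evidence of binding.
Btg2: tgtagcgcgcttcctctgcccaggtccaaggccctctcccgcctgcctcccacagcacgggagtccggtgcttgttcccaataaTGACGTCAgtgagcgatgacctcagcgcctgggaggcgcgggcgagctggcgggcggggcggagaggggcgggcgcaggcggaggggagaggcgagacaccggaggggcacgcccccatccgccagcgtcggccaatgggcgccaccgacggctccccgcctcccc
Dusp1: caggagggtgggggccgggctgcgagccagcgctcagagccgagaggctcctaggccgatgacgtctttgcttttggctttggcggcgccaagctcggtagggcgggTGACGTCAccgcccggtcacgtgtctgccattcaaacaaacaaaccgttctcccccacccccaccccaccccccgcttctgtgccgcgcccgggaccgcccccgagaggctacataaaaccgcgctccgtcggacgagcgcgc
Btg2, an antiproliferative gene on both lists, went from 362 to 1369 window reads. Its RNA was 36.6, 50.5 and 41.0 CPM untreated and 478, 264 and 354 CPM irradiated. Dusp1, a phosphatase that switches off stress kinases, went from 798 to 1670 window reads. Its RNA was 20.9, 15.3 and 13.6 CPM untreated and 56.5, 51.5 and 60.8 CPM irradiated, a log2 fold change of 1.76 ± 0.19 (SE, n = 3 per group, edgeR adjusted p = 5.77e-06). In both genes every irradiated library lay above every untreated one. The motif begins 166 bases before the start in Btg2 and 143 in Dusp1.

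Gaining windows were fewer in the other lists. Of 24 windows of cytokine and NF-kB genes 4 gained, those of Il11, Nfkb2, Hbegf and Icam1, and RNA was higher in the first 3. Il11, which encodes an interleukin, rose from 8.29 ± 1.47 to 53.9 ± 19.3 CPM, and Hbegf, which encodes a ligand of the EGF receptor, from 20.3 ± 13.2 to 107 ± 39.9 CPM (SD, n = 3). Untreated replicate 1 of Hbegf stood apart, at 35.5 CPM against 13.7 and 11.7, and without it the log2 fold change went from 2.41 to 3.18. Nfkb2 was called at 0.70 (edgeR adjusted p = 0.0235), a call lost in 3 of 12 alternatives, among them the fit without irradiated replicate 3 (0.66). Of 26 windows of matrix genes 3 gained and 3 had a log2 ratio of -1 or less, and the median window ratio was -0.23. Among those that gained were Col5a2 and Tnc, which encode a collagen chain and a matrix glycoprotein. Their log2 ratios were 1.35 and 1.77, and their RNA was not called. Of 18 windows of SRF and YAP targets Ctgf and Cyr61 gained, and their RNA was not called. Against a share of 2.45% over all windows, none of the 19 windows of genes that write, read or erase H3K27 acetylation gained, nor did any of the 27 windows of fibroblast, epithelial, endothelial and immune markers.

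Some gaining windows belonged to genes whose RNA fell. The window of Ccnf, which encodes a cyclin that is part of a ubiquitin ligase, went from 572 to 1292 reads while its RNA went from 98.7 ± 23.5 to 22.1 ± 11.1 CPM (SD, n = 3), a log2 fold change of -2.16 (edgeR adjusted p = 3.03e-05). Fbxo34 had a window ratio of 1.87 and RNA that went from 23.1 ± 1.06 to 7.58 ± 0.86 CPM, the steepest contrast of window and RNA among the 6 named. Mapkapk3, a kinase gene downstream of p38, Pskh1 and Cdc42se2 had fold changes of -1.51, -1.51 and -1.35. Of 27 windows of replication-dependent histone genes 2 gained, against 2.45% of all windows, and 4 had a log2 ratio of -1 or less. The median window ratio on that list was -0.40. The 2 that gained were Hist1h2ab and Hist1h4a, whose RNA fell by 1.57 and 0.57 on the log2 scale. On that list 23 of the 25 tested genes were called lower, these 2 included, against 12.4% of all genes tested. Near-identical histone copies can share reads, so these 2 values are uncertain, and the call of Hist1h4a was lost in 6 of 12 alternatives. Without untreated replicate 1, 2 or 3 its fold change was -0.47, -0.45 or -0.44, and without irradiated replicate 3 it was -0.61. In the other direction, Ddit4, an inhibitor of the growth kinase mTORC1, and the unnamed transcripts 1810011O10Rik and 1700056E22Rik completed the 12 rises with the smallest p, at log2 fold changes of 3.00, 5.34 and 3.94. Whether reads of overlapping or antisense genes were kept apart in these counts is not given in the sources used here.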

How the data were processed

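RNA files hold raw counts per gene, deposited by the authors. Chromatin files hold, per the file headers, a count of pooled reads per feature and condition, an input count, and log2 enrichment deposited by the authors. The latter was recomputed as log2((reads + 16)/(scale × input + 16)), with each scale solved from the deposited values. The scales were 0.657 and 0.528 for untreated and irradiated FAIRE and 0.706 and 0.712 for H3K27ac in the promoter tables. The peak score deposited by the authors was used only for 1 alternative. TopHat, Bowtie 0.12.9, DESeq2, MACS2 and the build mm9 are named per the submitters' processing notes, without settings. Columns headed DMSO were taken as irradiated, from the labels' protocol, and 8 columns of values that match no sample were not used.

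The members and lists were chosen with earlier results of these data known. Overlaps, distances, exact binomial and conditional binomial intervals (95%) were computed with scipy 1.17.1, pandas 2.3.3 and numpy 2.4.6 under Python 3.11.15, and figures drawn with matplotlib 3.10.9. Peaks were named by rule: the 8 highest ratios and the 6 highest irradiated read numbers among 4805 members of at least 200 bp and 100 reads, the 3 longest runs, and 2 peaks on each side of the threshold. RNA counts were tested in R 4.3.3 with edgeR 4.0.16 (filterByExpr, TMM, quasi-likelihood F test, Benjamini-Hochberg over 14925 of 19069 genes, threshold 0.05), and DESeq2 1.42.0 was an alternative. CPM used TMM-scaled library sizes. Genes named were the 12 higher and 6 lower with smallest p among those with a gaining window, plus tested list members, of which 1 is not reported here. The planned link by overlap of peaks with promoters was replaced by the windows' own ratio, and the 5 genes with most gaining peaks near them were not named. On simulated libraries of 14302 genes the RNA test recovered 83 of 106 genes changed by a log2 of 1 (78.3%) and 94 of 94 changed by 2, with 14 other genes called. The changed genes had a mean count of at least 100.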

Additional observations from a re-analysis of the deposited data

How the results depend on the processing

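Pooled chromatin reads leave sample error unmeasured. The gaining peaks numbered 2829 with an overlap of 50% of the shorter peak, 10392 at a log2 ratio of 0.58 and 2227 at 1.5, against 5371. Their median width was 1145 bp with the stricter overlap, 758 bp with 1 read added and 906 bp in the upper 50% by score. Untreated reads per kb were 104 (1 read added), 163 (ratio 0.58), 93.7 (ratio 1.5), 111 (equal sums) and 135 (upper score). The members' FAIRE ratio reversed to 0.074 (ratio 1.5), 0.27 (FAIRE centred on all peaks) and 0.12 (FAIRE scaled by input scales, added after seeing the data), because its median as deposited lies near 0. It was -0.10 and -0.20 (1 H3K27ac read added, ratio 0.58), 0.00 (equal sums), -0.057 (H3K27ac centred) and -0.12 (1 FAIRE read added). The difference from the other open peaks stayed above 0 in all settings tried: 0.37 and 0.58 (ratios 0.58 and 1.5), 0.52 (equal sums), 0.49 (upper score), 0.71 (1 FAIRE read added), 0.45 (mean over FAIRE peaks) and 0.48 (FAIRE input scales). The share with another member within 10 kb was 12.6% (stricter overlap), 41.6% (1 read added), 44.6% and 33.9% (ratios 0.58 and 1.5), 37.6% (equal sums) and 38.2% (upper score), and it was 30.5% within 2 kb and 60.6% within 50 kb. Scaling H3K27ac by input scales, or leaving out mitochondrial peaks and the upper 1% by input, both added later, moved none of these beyond its spread.

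Among genes with gaining windows, 32 (7.13%) were higher and 19 (4.23%) lower in RNA at a log2 change of at least 1. Over all genes tested these shares were 1.81% and 5.37%. RNA was higher in 236 (14.2%) and lower in 234 (14.1%) at a window ratio of 0.58. At 1.5 the counts were 17 (19.3%) and 7 (7.95%). Both settings were added later and stand against 7.7% and 12.4% of all genes. Library totals gave 145 lower (32.3%), against 25.1% of all genes. Leaving out 1 library gave 54 to 104 higher and 34 to 123 lower. Over all genes those fits called 3.75% to 12.5% higher and 7.31% to 18.3% lower. DESeq2 gave 58 (13.6%) and 45 (10.6%), against 7.63% and 11.7% of all genes. For Eda2r the fold change ranged from -0.91 (without irradiated replicate 1) to 0.091 (without untreated replicate 1), the only change of sign among the genes whose fold change is given. Same-numbered libraries had deviations correlated at 0.15, -0.58 and 0.50, so the numbers do not pair them. With the replicate block 78 (17.4%) were higher and 77 (17.1%) lower, against 8.55% and 13.8% of all genes. The overlap of peaks with promoters and links at 10 or 50 kb were not run, since no coordinates of promoters were at hand. The causes of these shifts were not tested.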
